A study of Mus musculus with 10 samples.

Results

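The subject here is a set of 10 mouse genes of superoxide, peroxide and carbonyl detoxification and of their regulation, measured in the hippocampus of Dp1Yey mice, a model of Down syndrome. The genes were Sod1, Sod2, Sod3, Cat, Gpx1, Cbr1, Cbr3, Bach1, Nfe2l2 and Hmox1. They were taken by symbol, using every array probe set annotated to exactly 1 of these symbols, and each gene had 1 such probe set among the 19938 genes of the table. Sod1, Cbr1, Cbr3 and Bach1 lie in the duplicated part of mouse chromosome 16 (Mmu16) and are present in 3 copies in Dp1Yey mice, whereas the other 6 genes keep 2 copies. The Dp1Yey group held 5 mice carrying the segmental duplication from Lipi to Zbtb21 and the control group held 5 littermates without it. All were males aged 16 weeks, with left and right hippocampus pooled within a mouse and 1 Affymetrix Mouse Gene ST array per mouse. The labels give a C57BL/6N background and the study's text C57BL/6J, and this difference was not settled. Because the duplication spans many genes at once, an effect of the copies of Sod1, Cbr1, Cbr3 or Bach1 themselves cannot be told apart from that of the other duplicated genes.

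As background, superoxide dismutases turn superoxide into hydrogen peroxide: SOD1 in the cytosol, SOD2 in mitochondria and SOD3 outside cells. Catalase and glutathione peroxidases then remove the peroxide, so the balance between Sod1 and these genes has long been of interest in Down syndrome. CBR1 and CBR3 are carbonyl reductases that use NADPH to reduce quinones, aldehydes and ketones, and CBR1 also acts on prostaglandins. NRF2, the product of Nfe2l2, activates detoxification genes through antioxidant response elements, and BACH1 is a haem-regulated repressor that binds such elements and holds down Hmox1, the inducible haem oxygenase.

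The upstream DNA of the triplicated members is shown because their levels are compared below and because NRF2 and BACH1 act on DNA of this kind. RefSeq promoter windows of GRCm38.p6, running from 250 bases before to 50 bases after the transcription start, were listed for 8 of the 10 members, Sod3 and Hmox1 being the exceptions. Each was searched on both strands for the core of the antioxidant response element, TGACNNNGC, for the TATA box TATAAA and for the GC box GGGCGG, matches of which may overlap each other. Capitals mark the matches in the 250 bases before the start. All 4 genes lie on the plus strand, at chr16:90220512-90220761 for Sod1, chr16:93607587-93607836 for Cbr1, chr16:93682969-93683218 for Cbr3 and chr16:87698704-87698953 for Bach1.
Sod1: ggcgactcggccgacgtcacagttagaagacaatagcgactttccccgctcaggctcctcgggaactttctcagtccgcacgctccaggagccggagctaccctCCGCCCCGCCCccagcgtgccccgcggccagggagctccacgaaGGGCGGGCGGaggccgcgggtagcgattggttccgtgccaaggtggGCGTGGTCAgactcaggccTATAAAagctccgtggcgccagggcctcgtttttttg
Cbr1: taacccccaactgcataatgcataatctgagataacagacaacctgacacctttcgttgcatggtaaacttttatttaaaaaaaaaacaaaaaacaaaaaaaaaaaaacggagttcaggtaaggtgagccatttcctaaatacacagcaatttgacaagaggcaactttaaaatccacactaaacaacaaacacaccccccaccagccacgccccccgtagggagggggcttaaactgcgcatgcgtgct
Cbr3: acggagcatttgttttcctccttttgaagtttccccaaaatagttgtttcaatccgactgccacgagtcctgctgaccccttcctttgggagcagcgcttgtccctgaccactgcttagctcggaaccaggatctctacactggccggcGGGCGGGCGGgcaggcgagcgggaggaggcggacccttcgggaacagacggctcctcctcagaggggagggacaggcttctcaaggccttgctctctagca
Bach1: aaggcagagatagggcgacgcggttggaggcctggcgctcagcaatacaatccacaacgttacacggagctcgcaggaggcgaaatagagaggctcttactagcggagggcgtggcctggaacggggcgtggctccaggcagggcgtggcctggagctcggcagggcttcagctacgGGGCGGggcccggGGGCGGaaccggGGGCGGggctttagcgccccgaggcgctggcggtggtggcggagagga

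The Sod1 window held all 3 motifs: 4 GC boxes in overlapping pairs, a TATA box beginning 37 bases before the start, and a match to the antioxidant response element core on the opposite strand beginning 56 bases before it. The core was also matched in Nfe2l2 itself, 240 bases before the start, at chr2:75704885-75704913 on the minus strand, where the 29 bases read as follows with the match in capitals.
Nfe2l2: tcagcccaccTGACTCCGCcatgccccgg
No match to the core was found in the windows of Cbr1, Cbr3, Bach1, Sod2, Cat or Gpx1. These letters are common, since 12.4% of the 32851 RefSeq windows held the core, 13.6% the TATA box and 35.7% the GC box. A match is a description of the letters and does not show a bound site. The windows of the carbonyl reductase genes differed in base composition, with 44.0% G and C and no GC box in Cbr1 against 60% and 2 GC boxes in Cbr3. Bach1 had 69.7% G and C with 4 GC boxes, 1 of them after the start, and Sod1 had 66.7%, beside a median of 52.7% over all windows.

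Values are log2 RMA values, which are probe set brightness after robust multi-array averaging. Levels are compared between groups for each gene, never between genes, because probe sets differ in sensitivity. All 10 members lay above a detection floor of 5.44, a level that 90% of 1027 olfactory receptor genes, which neurons of this tissue should lack, did not exceed on average. All 11 hippocampal neuron markers also lay above the floor, but so did 15193 of the 19938 genes, so this does not test the tissue label. The arrays resembled each other closely, with medians of 6.31 to 6.37 in Dp1Yey and 6.35 to 6.44 in control mice and interquartile ranges of 3.47 to 3.53 and 3.40 to 3.51. The array medians were lower in Dp1Yey (exact permutation p = 0.0397, two-sided) and the interquartile ranges somewhat wider (exact permutation p = 0.0556). Among the 10 members, calls that depend on either are named beside the gene. For all other genes named below, this dependence is not given. Differences were tested with limma over all 19938 genes, with Benjamini-Hochberg adjustment, and a gene was called at an adjusted p under 0.05. Of all genes, 0.687% were called higher and 0.110% lower in Dp1Yey. With the interquartile range of the arrays in the fit, the counts went from 137 higher and 22 lower to 44 and 2.

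Of the members, 3 were called and all were higher in Dp1Yey: Sod1, Cbr1 and Cbr3, each triplicated. Bach1, the fourth triplicated gene, and Nfe2l2, in 2 copies, missed the threshold although all 5 Dp1Yey values of each lay above all 5 control values. No member was called lower. The 3 calls among 4 triplicated members are to be read against a background in which 41.3% of the 143 genes of the interval, and 60.8% of the 97 above the floor, were called higher. None of the 6 members outside the interval was called, where 0.394% of all genes outside it were called higher. The groups did not overlap for all 4 triplicated members, as for 45.5% of the interval's genes, and for 1 of the 6 others, as for 2.09% of genes outside it.

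**Figure D1:**
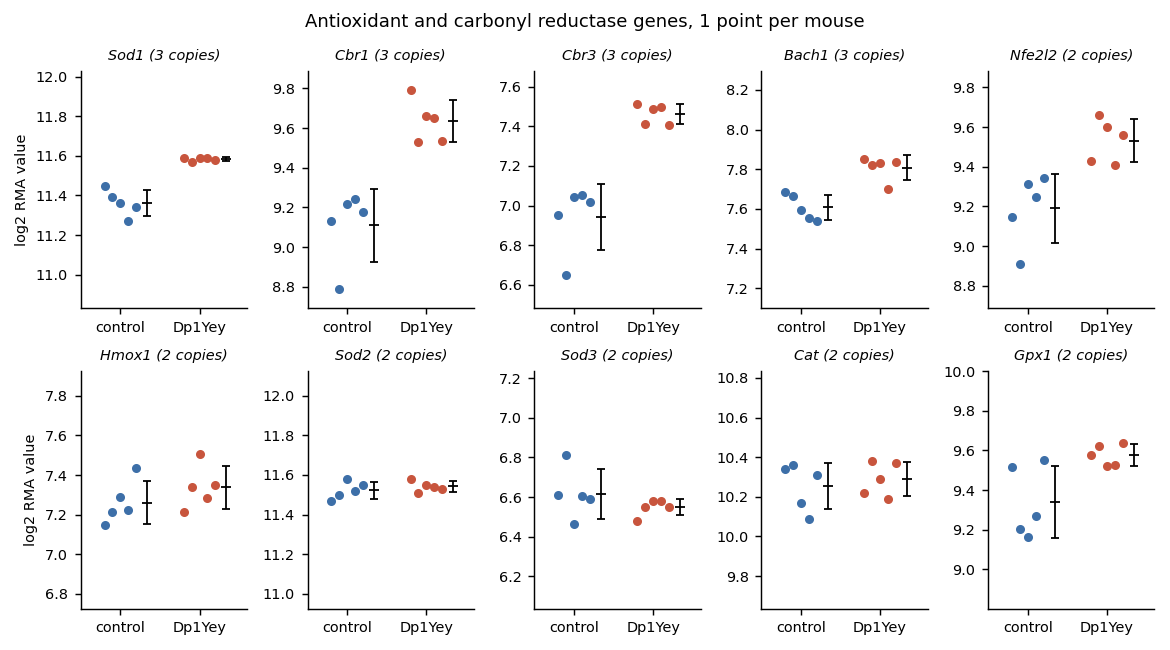
Log2 RMA value (y axis, each panel spanning the same 1.2 log2 units) of the 10 genes in 5 control (blue) and 5 Dp1Yey (red) mice, 1 point per mouse in order of replicate number, with mean and SD as a black bar. The Dp1Yey points lie above all control points for Sod1, Cbr1, Cbr3, Bach1 and Nfe2l2, and the groups overlap for the other 5 genes.

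Sod1 (chr16:90220762-90226333), the copper-zinc superoxide dismutase, was 1.16-fold higher in Dp1Yey (95% CI 1.10 to 1.23). Its log2 values were 11.59, 11.57, 11.59, 11.59 and 11.58 in Dp1Yey replicates 1 to 5 and 11.45, 11.39, 11.36, 11.27 and 11.34 in control replicates 1 to 5. The Dp1Yey mice were nearly identical, with an SD of 0.0111 around 11.58, and the controls were more spread, with an SD of 0.0661 around 11.36 (n = 5 each). The log2 difference was 0.22 (SE 0.0355, limma adjusted p = 0.0139; exact permutation p = 0.00794, two-sided, the smallest that 5 against 5 allows). The call was lost without Dp1Yey replicate 3 (adjusted p = 0.0532) and when the fit carried the interquartile range of the arrays (log2 difference 0.24, adjusted p = 0.0854).

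Going from 2 to 3 copies would give 1.5-fold if transcript followed gene number, and the difference was therefore also tested against log2 of 1.5 with the same limma standard error, with adjustment over 97 interval genes (those exceeding the floor). By this measure of probe set brightness, Sod1 lay below 1.5-fold (adjusted p = 9.84e-07) and ranked 65th of the 97 by size of change. How closely a ratio of brightness follows a ratio of transcript was not tested here, for Sod1 or any other gene. The paper reports, from qRT-PCR, a separate measure of mRNA, that Sod1 was overexpressed in the models in which it is triplicated. The size of that rise was not compared with the array value. Being under 1.5-fold was the usual finding in the interval, where it held for 68.0% of the 97 genes. The median change of these 97 genes was 0.32 on the log2 scale, above the 0.22 of Sod1.

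Cbr1 (chr16:93607837-93610349) and its neighbour Cbr3 (chr16:93683219-93690991) changed most among the members. Cbr1 was at 9.79, 9.53, 9.66, 9.65 and 9.54 in Dp1Yey and at 9.13, 8.79, 9.22, 9.24 and 9.18 in control replicates 1 to 5. Cbr3 was at 7.51, 7.41, 7.49, 7.50 and 7.41 in Dp1Yey and at 6.95, 6.65, 7.04, 7.05 and 7.02 in control. For either gene every Dp1Yey mouse exceeded every control, and control replicate 2 was the lowest of the 10 mice. Cbr1 was 1.44-fold higher (95% CI 1.27 to 1.63, log2 difference 0.52, SE 0.0813, limma adjusted p = 0.01). Cbr3 was 1.43-fold higher (95% CI 1.29 to 1.59, log2 difference 0.52, SE 0.0685, limma adjusted p = 0.00289). They ranked 14th and 16th of the 97 interval genes, and neither differed detectably from 1.5-fold (adjusted p = 0.522 for Cbr1 and 0.423 for Cbr3). Without control replicate 2 the log2 differences were 0.44 and 0.45, and both genes then lay below 1.5-fold (adjusted p = 0.0288 and 0.00465). When the fit carried the interquartile range, Cbr1 was no longer called (0.36, adjusted p = 0.154) whereas Cbr3 was (0.38, adjusted p = 0.0457).

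The carbonyl reductase genes moved together from mouse to mouse. After removal of the group means, Cbr1 and Cbr3 correlated at r = 0.96 over the 10 arrays, given as a description since control replicate 2 lies far out for each. Within a mouse, the difference between the 2 genes varied with an SD of only 0.0191 among controls and 0.0635 among Dp1Yey mice. Its mean shifted by 0.00334 with genotype. The 2 genes are paralogues of related sequence, and whether their probes share targets was not tested. Sod3 ran the opposite way over the same mice, with r = -0.81 to Cbr1 and -0.83 to Cbr3, and its highest value, 6.81, was in control replicate 2. The whole array of this mouse was the extreme one, with the highest median (6.44) and the narrowest interquartile range (3.40) of the 10. Its part in these correlations was not tested.

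**Figure D2:**
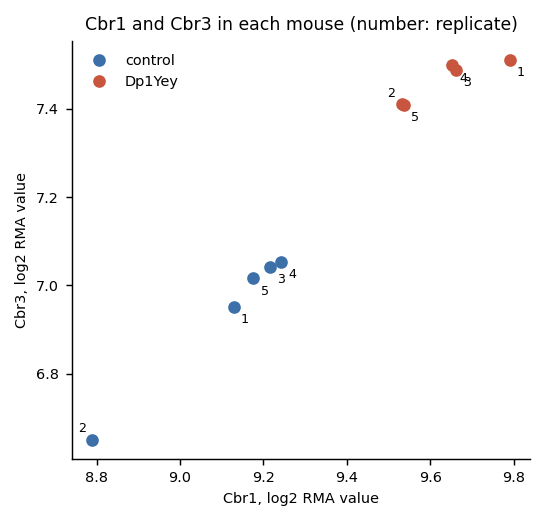
Cbr3 against Cbr1, both as log2 RMA values, in each of 10 mice, numbered by replicate, with control in blue and Dp1Yey in red. The groups separate on both axes, the points lie close to a line within each group, and control replicate 2 sits lowest at 8.79 for Cbr1 and 6.65 for Cbr3.

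Bach1 (chr16:87698954-87733346), the repressor of haem oxygenase, was 1.15-fold higher (95% CI 1.08 to 1.22) without passing the threshold. It was at 7.85, 7.82, 7.83, 7.70 and 7.84 in Dp1Yey and at 7.68, 7.67, 7.59, 7.56 and 7.54 in control replicates 1 to 5. The groups did not overlap, although Dp1Yey replicate 4 came close to control replicate 1. The log2 difference was 0.20 (SE 0.0416, limma adjusted p = 0.0513; exact permutation p = 0.00794). It would be called without Dp1Yey replicate 4 (adjusted p = 0.0297), without control replicate 1 (0.0449), with each array centred on its median (log2 difference 0.25, adjusted p = 0.00604) or over genes above the floor alone (0.0489). Bach1 lay below 1.5-fold (adjusted p = 2.74e-06) and ranked 67th of the 97 interval genes, close to Sod1.

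**Figure D3:**
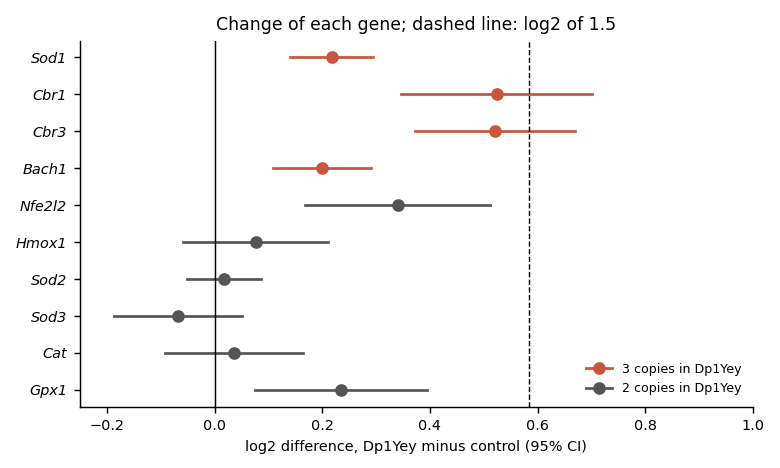
Log2 difference, Dp1Yey minus control, of the 10 genes (points) with 95% confidence intervals (lines), red for genes in 3 copies and grey for genes in 2 copies, with lines at 0 and at log2 of 1.5. The intervals of Cbr1 and Cbr3 reach 1.5-fold, those of Sod1 and Bach1 end below it, and among 2-copy genes those of Nfe2l2 and Gpx1 exclude 0 before adjustment for the number of genes.

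The duplicated genes beside the members did not change alike. Beside Sod1, Scaf4 rose 1.32-fold (limma adjusted p = 0.00211) and Tiam1 1.25-fold (0.0009), Hunk was at 1.19-fold (0.0958) and Gm10789 at 0.946-fold (0.385). Beside Bach1, the chaperonin gene Cct8 rose 1.39-fold (4.68e-05) and the kainate receptor gene Grik1 1.21-fold (0.0238), while Map3k7cl was at 1.03-fold (0.518) and 2810407A14Rik lay below the floor. Beyond Cbr3, Dop1b rose 1.38-fold (0.000731) and Morc3 1.52-fold (0.000805). On the other side of Cbr1, Setd4 was at 0.932-fold (0.392) and Runx1 at 1.02-fold (0.73). Most uncalled neighbours had low mean values in Dp1Yey, Gm10789 at 5.52, Setd4 at 6.085, Runx1 at 6.30 and Map3k7cl at 6.38, beside the floor of 5.44. Hunk, also uncalled, was at 9.42, and the lowest called neighbour, Grik1, at 7.12. Whether low signal affects these folds was not tested. Sod1 and Bach1 thus each sat between neighbours that rose and neighbours that were not called, and Cbr1 and Cbr3 stood beside Dop1b and Morc3, with changes of similar size.

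**Figure D4:**
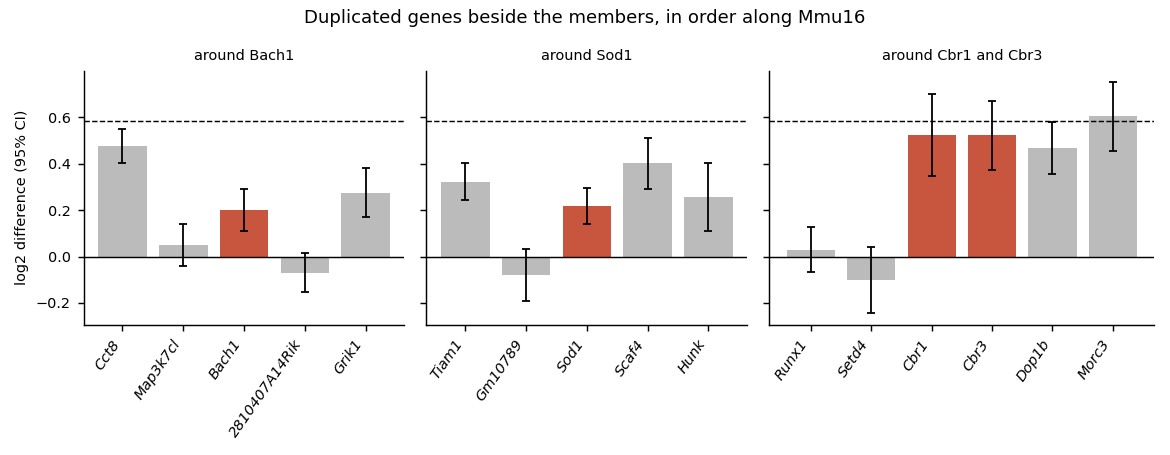
Log2 difference, Dp1Yey minus control, with 95% confidence interval, of the measured genes beside Bach1, Sod1 and the Cbr1 and Cbr3 pair (red) in their order along Mmu16, with neighbours in grey and a dashed line at log2 of 1.5. Bars beside Cbr1 on the Setd4 side lie near 0, and those from Cbr1 to Morc3 lie between 0.47 and 0.60.

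Nfe2l2 (chr2:75675513-75704663), which encodes NRF2 and is present in 2 copies, was 1.27-fold higher (95% CI 1.12 to 1.43) but not called. It was at 9.43, 9.66, 9.60, 9.41 and 9.56 in Dp1Yey and at 9.15, 8.91, 9.31, 9.25 and 9.34 in control replicates 1 to 5. The lowest Dp1Yey value, in replicate 4, exceeded the highest control value, in replicate 5, by less than the SD of either group (0.11 and 0.174). The log2 difference was 0.34 (SE 0.0789, limma adjusted p = 0.0675; exact permutation p = 0.00794). Its unadjusted limma p was 0.000971. Of genes outside the interval, 8.45% were higher at the looser threshold of 0.05, and 2.09% were higher without overlap of the groups. With an intensity trend and robust prior Nfe2l2 would be called (adjusted p = 0.0478). The log2 difference fell to 0.21 when the fit carried the interquartile range (adjusted p = 0.637) and was 0.23 without control replicates 1 and 2 (0.133). Measured within each mouse, Nfe2l2 relative to its antagonist Bach1 was higher by 0.14 on the log2 scale in Dp1Yey, within the spread of the mice (exact permutation p = 0.246, two-sided). Hmox1 (chr8:75093618-75100593), which both proteins regulate, was at 7.21, 7.34, 7.51, 7.29 and 7.35 in Dp1Yey and 7.15, 7.21, 7.29, 7.22 and 7.44 in control. Its groups overlapped and its fold was 1.05 (95% CI 0.961 to 1.16, limma adjusted p = 0.491).

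The enzymes that clear superoxide and peroxide from 2-copy genes gave no call. Gpx1 (chr9:108339080-108340342), the cytosolic glutathione peroxidase, was at 9.58, 9.62, 9.52, 9.53 and 9.64 in Dp1Yey and at 9.52, 9.20, 9.16, 9.27 and 9.55 in control. Control replicate 5 lay within the Dp1Yey range, control replicate 1 just under its lower end and the other controls further below, so that the groups overlapped. The fold was 1.18 (95% CI 1.05 to 1.32, limma adjusted p = 0.135; exact permutation p = 0.0317, two-sided). Cat (chr2:103453904-103485153), catalase, was at 10.22, 10.38, 10.29, 10.19 and 10.37 in Dp1Yey and at 10.34, 10.36, 10.17, 10.09 and 10.31 in control. The groups were intermingled, with a fold of 1.03 (95% CI 0.939 to 1.12, limma adjusted p = 0.743).

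Sod2 (chr17:13007839-13018119), the mitochondrial dismutase, ranged from 11.51 to 11.58 in Dp1Yey and from 11.47 to 11.58 in control mice, at 1.01-fold (95% CI 0.966 to 1.06, limma adjusted p = 0.763). Sod3 (chr5:52363804-52369738), the extracellular dismutase, ranged from 6.48 to 6.58 and from 6.46 to 6.81, at 0.954-fold (95% CI 0.879 to 1.04, limma adjusted p = 0.49). The rise of Sod1 within each mouse was then set against the other enzymes. Sod1 relative to Sod2 was 0.20 higher on the log2 scale in Dp1Yey with no overlap (exact permutation p = 0.00794), and relative to Cat 0.18 higher (exact permutation p = 0.0159). Relative to Gpx1 the shift was -0.02 (exact permutation p = 0.889), and relative to Prdx1 it was -0.00403 (exact permutation p = 0.992). Prdx1 had 2 probe sets, and that of higher mean was used. Cbr1 relative to Sod1 was 0.31 higher (exact permutation p = 0.0238). Of 7 such pairs compared, the lowest Benjamini-Hochberg adjusted p was 0.0555. With 5 mice a group a single fully separated pair could not pass an adjustment over 7 pairs unless other pairs also had low p-values. No ratio passed it, and the exact permutation p-values given for the pairs are unadjusted.

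Genes resembling Sod1 from mouse to mouse were ranked by Pearson r of the deviations from the group means over the 10 arrays, among genes above the floor. The 5 most alike were Sema6d (r = 0.95), Cdh11 (0.948), Htt (0.94), Plcg1 (0.929) and Snx29 (0.927). None lies in the duplicated interval and none was called, with log2 differences between -0.0942 and 0.00205. Since the Sod1 values of Dp1Yey mice hardly varied, this likeness rests mainly on the 5 controls. The 5 genes are the highest of 15193 above the floor, and what r unrelated genes would reach was not tested.

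The rest of the redox system was described by lists of genes, each set beside the median of all genes, -0.015 on the log2 scale. Listed genes that were not measured are left out of all counts, among them Prdx5, Prdx6, Gsta1, Gsta2, Gstp2 and G6pdx. Of all 19938 genes, 8393 were higher and 11545 lower. Most list genes lay above the floor, where 7023 of 15193 genes were higher and 8170 lower, with a median of -0.00836. Counts at an unadjusted p under 0.05 are to be read against the genes outside the interval, of which 8.45% were higher and 10.8% lower at that threshold. Groups that did not overlap are to be read against 2.09% of those genes with all Dp1Yey values higher and 2.47% with all lower. Of the 4 measured peroxiredoxins, thiol peroxidases that remove hydrogen peroxide, all 4 were higher and none was called, with a median of 0.22. Prdx1 was at 1.17-fold (limma adjusted p = 0.135), Prdx3 at 1.19-fold (0.136), Prdx4 at 1.16-fold (0.257) and Prdx2 at 1.00-fold (0.969). Prdx1 and Prdx2 each had 2 probe sets, and only that of higher mean is given. Of 20 glutathione transferases, which join glutathione to reactive compounds, 18 were higher, with a median of 0.13. An unadjusted p under 0.05 was reached by 9 of them, all higher, beside 8.45% of genes outside the interval. Gstm2 was the only one called (1.22-fold, adjusted p = 0.037). Mgst1 at 1.39-fold (0.0748), Gstm4 at 1.30-fold (0.0697) and Gstm6 at 1.26-fold (0.0684) did not pass, though their groups did not overlap, as for 2.09% of genes outside the interval. The Gstm genes are close in sequence, so that probes may be shared among them.

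Of 26 genes of carbonyl and aldehyde metabolism, 21 were higher and 4 were called, Cbr1 and Cbr3 among them. The others called were Ptgr2, a prostaglandin reductase, at 1.33-fold (limma adjusted p = 0.0194), and Hsd11b1, which regenerates active glucocorticoid, at 1.27-fold (0.0258). Both lie outside the interval and their groups did not overlap: Ptgr2 ranged from 8.58 to 8.89 in Dp1Yey and from 8.19 to 8.44 in control. Hsd11b1 ranged from 9.01 to 9.35 in Dp1Yey and from 8.66 to 8.87 in control. Of 28 NRF2 target genes, 20 were higher and 2 were called, namely Cbr1 and Cbr3. Leaving out the interval genes and the 10 members, 16 of 24 were higher, none was called by limma, an unadjusted p under 0.05 was reached by 6 genes upward and 2 downward (8.45% and 10.8% of genes outside the interval), and the median was 0.0457. Gsta4 was at 1.15-fold (0.0939).

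Of the 13 regulators of NRF2 and BACH, 7 were higher and none was called by limma. Apart from Bach1 and Nfe2l2, Cul3, the cullin that with Keap1 marks NRF2 for degradation, was at 0.95-fold (limma adjusted p = 0.226), with every Dp1Yey value below every control value, and Rbx1 was at 1.06-fold (0.231). Rbx1 had 2 probe sets, and only that of higher mean is given. Among the 3 superoxide dismutase genes and Ccs, the copper chaperone of SOD1, Sod1 alone was called, and Ccs was at 0.983-fold (0.837). Of 9 genes of catalase and the glutathione peroxidases, none was called, 5 were higher, and Gpx5 and Gpx6 lay at or below the floor. Gpx2 was at 0.87-fold (0.213).

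In the remaining groups no gene was called by limma. Of 18 thioredoxin and methionine sulphoxide repair genes, 13 were higher and 2 of these had an unadjusted p under 0.05, Glrx3 at 1.35-fold (adjusted p = 0.12) and Glrx at 1.16-fold (0.174). Of 12 genes of glutathione synthesis and recycling, 6 were higher and 2 of these had an unadjusted p under 0.05, Chac2 at 1.13-fold (0.171) and Gclm, a subunit of the rate-limiting enzyme, at 1.09-fold (0.256). Of 15 haem and iron genes, 13 were higher and 1 of these reached it, the transferrin receptor gene Tfrc at 1.23-fold (0.134). Of 4 metallothioneins, metal-binding proteins, 3 were higher and 2 of these reached it, Mt1 at 1.24-fold (0.143) and Mt2 at 1.23-fold (0.134). Of 20 genes that generate superoxide or peroxide, 12 were lower, but 6 of the 20 lay at or below the floor, where a sign carries little. An unadjusted p under 0.05 was reached by Aox1 at 0.909-fold (0.164) and by Maob at 1.11-fold (0.192). Of 9 genes of oxidised base repair, 8 were lower, with a median of -0.0690, and Neil2 and Neil3 lay at or below the floor. The 2 with an unadjusted p under 0.05 were Ung at 0.92-fold (0.162) and Mutyh at 0.895-fold (0.164).

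**Figure D5:**
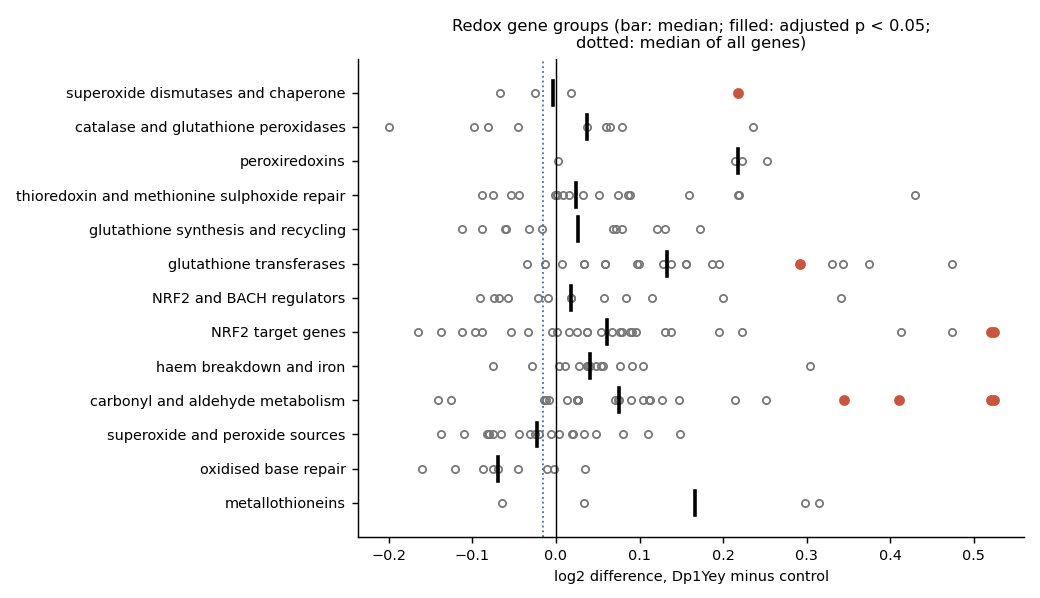
Log2 difference, Dp1Yey minus control (x axis), of each measured gene in 13 redox gene groups, with filled red points for genes at adjusted p under 0.05, black bars for group medians and a dotted line for the median of all genes, -0.015. Peroxiredoxins and glutathione transferases lie mostly to the right, oxidised base repair to the left, and the red points are Sod1, Gstm2, Cbr1, Cbr3, Ptgr2 and Hsd11b1.

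In whole tissue, more cells of a type cannot be told apart from more RNA per cell, and marker lists of other cell types were therefore set beside these results. All 7 choroid plexus markers were lower in Dp1Yey, with a median of -0.617 and none called. An unadjusted limma p under 0.05 was reached by 5 of them, beside 10.8% of genes outside the interval that were lower at that threshold. Ttr changed most, at 0.338-fold (limma adjusted p = 0.244). The mean level of the 7 markers per mouse was 7.56, 7.20, 7.22, 8.02 and 7.81 in Dp1Yey and 9.20, 7.53, 7.33, 8.81 and 8.96 in control. Control replicates 1, 4 and 5 thus stood above all other mice. Microglial markers were higher for 7 of 8 genes, with a mean level of 8.55 to 8.64 in Dp1Yey and 8.40 to 8.58 in control. Siglech among them was at 1.2-fold without overlap (limma adjusted p = 0.0662). The hippocampal neuron markers had a mean level of 10.62 to 10.70 in Dp1Yey and 10.50 to 10.62 in control. Of these 11 markers 7 were higher and 4 lower, with a median log2 difference of only 0.00749. Wfs1 changed most among them, at 1.34-fold without overlap (limma adjusted p = 0.0533). Of the 3 measured red cell markers, Alas2 was at 1.47-fold (limma adjusted p = 0.165), Slc4a1 was at 0.966-fold (0.416), and Car1 lay below the floor. Of the astrocyte markers 5 of 8 were higher, and of the meningeal and fibroblast markers 3 of 7, with none called by limma. Of 7 endothelial markers 6 were higher, with Slco1a4 at 1.26-fold without overlap (limma adjusted p = 0.0586) and Tek at 1.21-fold (0.114). Their mean level ranged from 8.12 to 8.38 in Dp1Yey and from 7.99 to 8.39 in control, and that of oligodendrocyte markers from 10.94 to 11.41 and from 10.88 to 11.28. The part of these cell types in the changes of Sod1, Cbr1, Cbr3, Bach1, Nfe2l2 and Gpx1 was not tested.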

How the data were processed

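Hippocampal RNA of 5 Dp1Yey and 5 control mice was hybridised to 1 array per mouse, and groups and replicate numbers were taken from the sample titles. The deposited values were on a log2 scale, produced by the authors through robust multi-array averaging (RMA). The sources used here do not give the arrays that entered this normalisation, and the labels and the study's text give different amounts of input RNA. RMA, limma and mm10 are named in the submitters' processing notes. The table held 35556 probe sets, of which 21789 had 1 gene symbol, 1621 had several and named no gene, and 12146 were not listed. Each of 19938 genes was represented by its probe set of highest mean.

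Groups were compared with limma 3.58.1 in R 4.3.3 (lmFit, eBayes), tested on simulated data, with Benjamini-Hochberg adjustment over all genes. The study's own rank statistic was rewritten as an alternative. Single values were compared by an exact two-sided permutation test over 252 assignments. Gene positions came from RefSeq, build GRCm38.p6. The members and gene lists were chosen with earlier results of these data known. The genes named were all members, up to 4 genes of smallest p in each list, 2 measured neighbours on each side in the interval and the 5 genes most like Sod1. The labels do not tell more of how the mice were drawn than that they were littermates. The limma p-values set a group difference against the variation between these mice, moderated over all genes. The permutation p-values count assignments of these mice to groups. Arrays give no read depth, and their number limits the precision.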

Additional observations from a re-analysis of the deposited data

Results flagged for a closer look

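Each gene's values were searched within each group for a mouse far from the other 4, and 3 of the 20 groups of values held one, where chance gives about 1 in 20. Control replicate 2 was low for Cbr1, at 8.79 against 9.13 to 9.24 in the other controls. The same mouse was low for Cbr3, at 6.65 against 6.95 to 7.05, and the 2 genes are not independent of each other. Dp1Yey replicate 4 was low for Bach1, at 7.70 against 7.82 to 7.85 in the other Dp1Yey mice.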

How the results depend on the processing

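The number of members called was 3, and it was 1 (Cbr3) with the interquartile range as a covariate, 5 by the rank statistic (Bach1 and Nfe2l2 added) and 2 to 4 when each mouse was left out in turn. The number of triplicated members below 1.5-fold was 2 (Sod1 and Bach1), and it was 4 with the same covariate, 4 without control replicates 1 and 2, and 2 to 4 when each mouse was left out, the 4 being without control replicate 2. Sod2 changed sign to -0.0134 with the covariate, -0.0173 after quantile normalisation and -0.00632 without control replicates 1 and 2. Sod3 changed sign to 0.0259 with the covariate, and Cat ranged from -0.00425 to 0.0625 when mice were left out, and none of these 3 genes was called under any setting. The cause was not tested. Bach1 was also called without control replicates 1 and 2 (adjusted p = 0.0303) and with probe sets averaged (0.05 after rounding). No pairing of the mice by replicate number was seen, since same-numbered deviations correlated between -0.327 and 0.217 and 1 of 5 mice matched its own number best. Weak correlation over so few mice does not show that same-numbered mice were unrelated. With the replicate block, 2 members were called, Sod1 being lost (0.22, adjusted p = 0.0702), and the count over all genes went from 137 higher and 22 lower to 90 and 4. Over all genes the count was 294 higher and 14 lower after median centring, 44 and 2 with the covariate, and 491 and 198 by the rank statistic. Leaving out 1 mouse moved it between 65 and 166 higher and between 3 and 70 lower. The number higher moved most without Dp1Yey replicates 1 (80), 2 (83) and 3 (65) or control replicate 4 (68), and the number lower rose to 70 without control replicate 3 and 37 without control replicate 5.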
